A study of Mus musculus with 130 samples.

Results

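The 10 genes described here encode the replicative helicase ring Mcm2 to Mcm7, its partner Mcm10, the origin recognition subunits Orc1 and Orc6 and the loader Cdc6. They were picked by symbol from the 52550 genes of the deposited count table, not by their measured values, and all 10 were present there and passed the filter on low counts that left 23506 genes to test. RNA came from FVB/NJ mouse embryos carrying FUCCI, a reporter with a red fluorophore on a fragment of Cdt1 (before S phase) and a green one on a fragment of geminin (from S phase to mitosis). Minced embryos of E10.5 (preparations WT1 and WT2), E11.5 (WT3) and E13.5 (preparations 5 and 8) were sorted by flow into the gates BR, DR, YE and GR, which the labels name G0, G1, G1-S and S-G2-M, and unsorted cells (US) were kept beside them. The series describes the embryos as wild type, so all groups share strain and reporter, and the labels give no mutation or treatment. No label tells whether embryos were pooled for a preparation, so p-values measure the spread between these libraries. Each of the 5 fractions had n = 5 libraries, 1 per preparation, and the tissue label is the embryo as a whole, so a gate can hold cells of any organ.

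Replication origins are licensed in G1. The origin recognition complex marks the site, Cdc6 joins it, and Cdt1 brings MCM rings that are closed around the DNA as inactive double hexamers. At the start of S phase CDK and DDK kinases, Cdc45, the GINS complex and Mcm10 turn these rings into moving helicases, while geminin binds Cdt1 and prevents a second round of loading. Many genes of this pathway are known targets of the E2F factors, which are named in the title of the series.

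Library totals ran from 14692256 to 58492064 counts, with a median of 22852555. The lowest member count in any library was 131 (Orc1 in G0), so no member was near the 3 counts that a reading of 0 would allow. Cell cycle markers differed between the gates: 8 mitosis genes summed to 47.6 to 124 CPM (counts scaled to a common library total) in G0, 96.0 to 274 in G1, 1362 to 2217 in G1-S and 3993 to 4387 in S-G2-M, and 4 S phase genes summed to 51.6 to 109 CPM in G0, 109 to 336 in G1, 725 to 1126 in G1-S and 706 to 809 in S-G2-M. All 8 mitosis genes were already higher in G1-S than in G1 (median log2 change 3.37), so the G1-S gate was not free of their RNA. All 10 E13.5 libraries had 1.66% to 3.42% of their counts on mitochondrial genes, against 0.376% to 0.701% in the E10.5 libraries. No preparation spans 2 days, so day and preparation set cannot be told apart.

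Because these genes moved together across the gates, the promoter windows of those that carry the finding are shown with the canonical E2F words in capitals. The words searched were TTTGGCGC, TTTCGCGC, TTTCCCGC and TTTGCCGC on both strands, and overlapping matches were counted. RefSeq windows (GRCm38.p6, 250 bases before to 50 after the annotated start, read 5′ to 3′ on the gene's strand) were present for 9 of the 10 members, all but Mcm4. A word was found in 6 of these 9 (Mcm3, Mcm5, Mcm6, Mcm7, Orc1 and Cdc6), against 2.27% of 32851 windows and 4.15% of the 13176 tested genes with a window. Mcm10, which had the largest rises between gates, is shown as a window without a complete word. That window ends in TTTGGCG, the searched word TTTGGCGC short of its last letter, so a word across this edge would be missed.
Mcm5 (chr8:75109259-75109558, plus strand): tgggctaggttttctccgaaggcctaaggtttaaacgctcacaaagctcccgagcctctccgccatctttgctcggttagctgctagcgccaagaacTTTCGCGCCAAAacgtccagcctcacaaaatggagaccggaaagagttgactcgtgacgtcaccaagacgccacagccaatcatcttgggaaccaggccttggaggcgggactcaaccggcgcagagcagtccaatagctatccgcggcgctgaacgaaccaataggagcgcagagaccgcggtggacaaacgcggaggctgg
Mcm6 (chr1:128359656-128359955, minus strand): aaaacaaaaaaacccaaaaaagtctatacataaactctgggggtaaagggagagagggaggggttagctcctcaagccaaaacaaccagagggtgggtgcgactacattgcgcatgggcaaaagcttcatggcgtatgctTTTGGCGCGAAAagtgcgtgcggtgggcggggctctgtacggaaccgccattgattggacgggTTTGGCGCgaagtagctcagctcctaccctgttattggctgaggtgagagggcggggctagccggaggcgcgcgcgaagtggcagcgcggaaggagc
Mcm7 (chr5:138171834-138172133, minus strand): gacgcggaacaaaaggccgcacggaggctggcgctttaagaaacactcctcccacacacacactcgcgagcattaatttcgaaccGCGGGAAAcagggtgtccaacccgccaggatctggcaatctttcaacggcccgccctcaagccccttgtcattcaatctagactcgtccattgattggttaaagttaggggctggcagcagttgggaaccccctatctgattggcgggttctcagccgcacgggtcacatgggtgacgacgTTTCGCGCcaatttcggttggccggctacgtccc
Orc1 (chr4:108579204-108579503, plus strand): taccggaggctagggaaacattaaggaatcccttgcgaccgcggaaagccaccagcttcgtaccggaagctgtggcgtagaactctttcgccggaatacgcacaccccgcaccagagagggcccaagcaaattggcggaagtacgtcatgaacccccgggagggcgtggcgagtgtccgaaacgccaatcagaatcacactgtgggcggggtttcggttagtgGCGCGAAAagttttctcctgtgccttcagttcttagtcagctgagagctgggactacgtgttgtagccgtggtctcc
Cdc6 (chr11:98907901-98908200, plus strand): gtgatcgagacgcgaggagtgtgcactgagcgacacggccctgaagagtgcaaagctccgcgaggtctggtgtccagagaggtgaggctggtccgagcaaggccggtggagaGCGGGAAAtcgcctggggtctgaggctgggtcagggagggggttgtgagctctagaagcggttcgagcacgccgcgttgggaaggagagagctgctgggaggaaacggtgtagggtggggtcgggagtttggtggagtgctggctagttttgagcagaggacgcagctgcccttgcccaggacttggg
Mcm10 (chr2:5012742-5013041, minus strand): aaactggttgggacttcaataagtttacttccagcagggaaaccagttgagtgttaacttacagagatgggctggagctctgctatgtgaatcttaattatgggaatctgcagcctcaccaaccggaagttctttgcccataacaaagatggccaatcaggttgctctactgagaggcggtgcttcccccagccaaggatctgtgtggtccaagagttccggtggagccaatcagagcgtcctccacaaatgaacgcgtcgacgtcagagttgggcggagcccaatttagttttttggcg
In the Mcm5 window a TTTCGCGC begins 153 bases before the start and overlaps a GCGCCAAA, the reverse complement of TTTGGCGC. The Mcm6 window holds the same kind of overlapping pair and a further TTTGGCGC that begins 47 bases before the start. Mcm7 has words on both sides of its start, 165 bases before it and 17 bases after it. That Mcm7 start lies 539 bases downstream of the first base of the gene in GENCODE M21. The Cdc6 start lies 350 bases downstream, so each of these windows covers only 1 of the possible starts. A further RefSeq window of Mcm7 (chr5:138171217-138171516), with its start 1156 bases downstream, was searched as well and held 0 E2F words. The pentamer CCAAT, on either strand, occurred in windows of 8 members, including Mcm2, Mcm10 and Orc6, whose windows hold no complete E2F word, and in 37.4% of all windows. The words TTTGAA and TTCGAA, searched on both strands as the element called CHR, occurred in windows of 2 members (Mcm2 and Mcm7) and in 19.2% of all windows. A match is a description of the letters and not evidence of binding, and no match says only that these letters are not in this window.

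All 10 genes were low in G0 and high in G1-S, and they differed in S-G2-M. Levels are given as CPM on TMM-adjusted library totals, and lists of 5 values run WT1, WT2, WT3, 5 and 8 throughout. Within a preparation the highest of the 4 gates was G1-S in 49 of 50 combinations of gene and preparation, and the lowest was G0 in 50 of 50. The exception was Mcm7 in WT2, with 436 CPM in S-G2-M and 417 CPM in G1-S. Set against the G1-S level of the same preparation, the depth of the trough in G0 differed between genes. Mcm10 stood at 7.22% ± 2.48 of its G1-S level in G0 and Cdc6 at 10.9% ± 3.57 (mean ± SD, n = 5). Orc6 stood at 39.3% ± 10.7 and Mcm2 at 32.3% ± 4.60, so their profiles were the flattest of the 10.

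**Figure D1:**
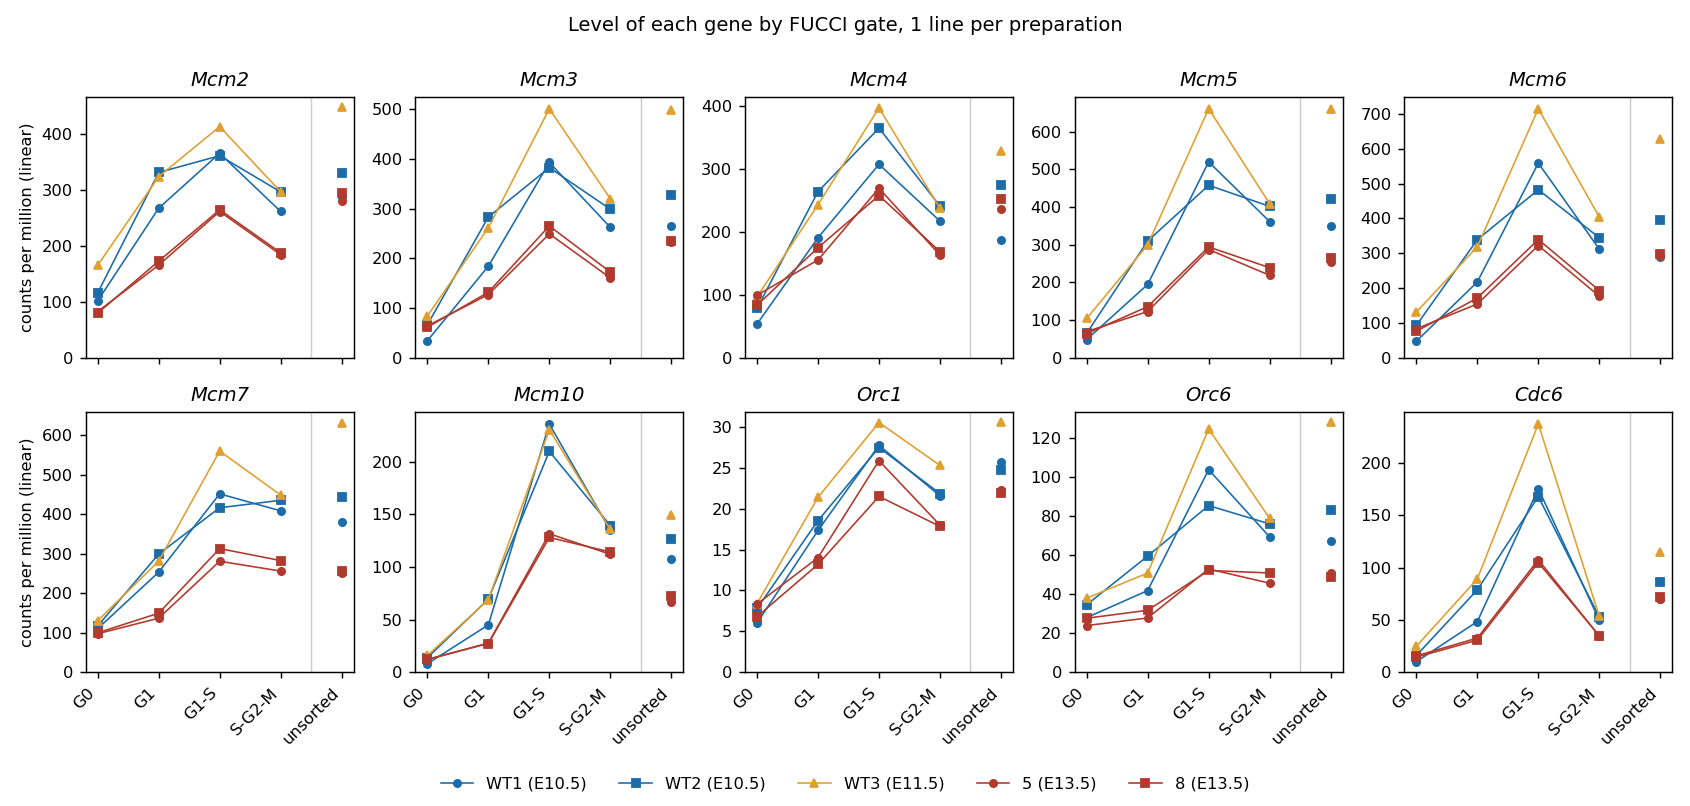
Level of each of the 10 genes in CPM (linear axis, from 0) across the G0, G1, G1-S and S-G2-M gates and in unsorted cells, with 1 point per library and 1 line per preparation. Every line starts at its lowest point in G0, 49 of 50 lines peak in G1-S, and in S-G2-M Cdc6 keeps the smallest share of its own peak.

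G1 cells were set against G0 cells to ask whether the licensing genes differ between the red gates. All 10 members were higher in G1 in edgeR's quasi-likelihood test with Benjamini-Hochberg adjustment, where 18.2% of all tested genes were higher. Their median log2 change was 1.38 against 0.01 over all tested genes. In 9 of the 10, all but Orc6, every G1 library lay above every G0 library, a pattern seen in 6.08% of tested genes. In bulk RNA, fewer cells of a type and less RNA per cell cannot be told apart. The G0 libraries also held more neuronal RNA: all 12 neuron markers were lower in G1, none was at 0 in any library, and they summed to 841 to 2188 CPM in G1 against 5802 to 10120 CPM in G0. Of the 6 heart markers, 4 were lower in G1 too. In the other direction, all 5 mesenchyme markers were higher in G1, with sums of 1255 to 5151 CPM in G1 and 278 to 3744 CPM in G0, as were all 6 macrophage markers (29.9 to 56.9 CPM in G1 and 5.51 to 13.7 CPM in G0), 5 of 6 neural progenitor markers and 6 of 9 erythroid markers. The part of these markers in the result was not tested.

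Among the origin recognition genes, Orc1, an ATPase subunit of the complex, had 17.3, 18.5, 21.4, 14.01 and 13.2 CPM in G1, against 6.02, 7.81, 8.41, 8.35 and 6.81 CPM in G0. No library of the G1 gate overlapped the G0 gate, and the log2 change was 1.16 ± 0.10 (SE, adjusted p = 1.54e-08). Orc6, the smallest subunit, had 41.8, 59.5, 50.8, 27.8 and 31.8 CPM in G1, against 28.0, 34.6, 37.97, 24.0 and 27.7 CPM in G0. Here the gates overlapped, because the G1 libraries of preparations 5 and 8 lay within the range of the G0 libraries. Its log2 change of 0.44 ± 0.13 was the smallest of the 10 (adjusted p = 0.0102), and it missed the threshold without preparation WT2 (log2 change 0.36, adjusted p = 0.0662).

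Cdc6, the loader, had 48.6, 78.9, 89.3, 32.8 and 30.8 CPM in G1, against 10.3, 16.1, 25, 15.8 and 14.6 CPM in G0. Every preparation was higher in G1, the E13.5 preparations by less than the others, and the log2 change was 1.71 ± 0.18 (adjusted p = 1.12e-07). Mcm10 had 45.1, 69.5, 69.0, 27.9 and 27.4 CPM in G1, against 8.23, 13.96, 16.1, 12.2 and 12.5 CPM in G0. Its log2 change, 1.84 ± 0.18, was the largest of the 10 (adjusted p = 5.45e-08). Of the ring subunits, Mcm3, which contacts the origin complex during loading, changed most, with 184, 283, 262, 127 and 132 CPM in G1, against 33.9, 66.1, 83.9, 63.9 and 61.2 CPM in G0. WT1 had the lowest Mcm3 level of the G0 libraries and WT2 the highest of the G1 libraries. The log2 changes of the ring genes ran from 0.94 ± 0.12 for Mcm7 to 1.61 ± 0.18 for Mcm3, with Mcm5 at 1.52 ± 0.17, Mcm6 at 1.45 ± 0.18, Mcm4 at 1.30 ± 0.16 and Mcm2 at 1.21 ± 0.11.

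G1-S cells, which carry both colours, were set against G1 cells. All 10 members rose again, where 11.7% of tested genes were higher, with a median log2 change of 0.91 against 0.01 over all tested genes. In 3 members, Mcm10, Orc1 and Cdc6, every G1-S library lay above every G1 library (5.28% of tested genes). Mcm10 had 236, 209.8, 230.4, 132 and 128 CPM in G1-S, against the 27.4 to 69.5 CPM of the G1 libraries given above. Even the lowest G1-S library had more than the highest G1 library, and the log2 change of 2.0 ± 0.18 was the largest of the group (adjusted p = 9.77e-09). Cdc6 had 175, 168, 237, 108 and 105 CPM in G1-S, against 30.8 to 89.3 CPM in G1, a log2 change of 1.53 ± 0.17 (adjusted p = 6.23e-07). Orc1 had 27.7, 27.5, 30.5, 25.9 and 21.5 CPM in G1-S, against 13.2 to 21.4 CPM in G1 (log2 change 0.67 ± 0.10, adjusted p = 4.4e-05). The lowest G1-S library of Orc1, of preparation 8, was only just above the highest G1 library, of WT3.

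Orc6 had 104, 85.3, 124, 52.9 and 52.1 CPM in G1-S, against 27.8 to 59.5 CPM in G1, a log2 change of 0.94 ± 0.13 (adjusted p = 1.19e-05). The G1-S libraries of preparations 5 and 8 lay inside the G1 range. The ring genes Mcm5 and Mcm6 rose by 1.07 ± 0.17 and 1.0 ± 0.18 on the log2 scale. Mcm5, which with Mcm2 forms the gate of the ring, had 520.3, 458, 662, 287 and 294 CPM in G1-S, against 195, 309.9, 299.8, 123 and 136 CPM in G1. In each preparation the G1-S value was higher, yet the E13.5 values in G1-S fell below the highest G1 value, that of WT2. Mcm7 rose by 0.87 ± 0.12, Mcm3 by 0.87 ± 0.18 and Mcm4 by 0.63 ± 0.15. Mcm2, the ring subunit that also binds histones, changed least, with 365, 361, 413, 261 and 264 CPM in G1-S, against 267, 331, 324, 165 and 173 CPM in G1 (log2 change 0.43 ± 0.10, adjusted p = 0.00488). It missed the threshold without preparation 5 (adjusted p = 0.0659) or without preparation 8 (adjusted p = 0.0824).

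Markers of several organs moved with this gate. All 6 heart markers were higher in G1-S, with sums of 307 to 996 CPM in G1-S and 31.9 to 98.5 CPM in G1. All 6 hepatocyte markers were higher as well, with 18.7 to 2033 CPM in G1-S and 7.17 to 24.6 CPM in G1, and so were all 6 macrophage markers, with 80.8 to 311 CPM in G1-S and 29.9 to 56.9 CPM in G1. Of these genes only Ahsg, a hepatocyte gene, was at 0 in any library (3 of 25). In the other direction, 6 of 12 neuron markers and 1 of 9 erythroid markers were lower in G1-S. The part of all these markers in the result was not tested.

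S-G2-M cells were set against G1-S cells to follow the genes after the peak. The members did not move alike here. Of the 10, 7 fell, where 10.1% of tested genes were lower, with a median log2 change of -0.48 against 0.00 over all tested genes. Mcm5, Mcm7 and Orc6 did not pass the test. In 2 members, Mcm4 and Cdc6, every S-G2-M library lay below every G1-S library (4.37% of tested genes). Cdc6 had 49.8, 52.9, 53.5, 34.6 and 35.0 CPM in S-G2-M, against 175, 168, 237, 108 and 105 CPM in G1-S. Its log2 change was -1.77 ± 0.18 (adjusted p = 6.78e-07), which left it at 29.6% ± 4.36 of its G1-S level (n = 5). Mcm4 had 217, 241, 237, 163 and 168 CPM in S-G2-M, against 307, 364, 396, 269 and 257 CPM in G1-S, and was left at 64.5% ± 4.42. That was a log2 change of -0.63 ± 0.15 (adjusted p = 0.00607), and Mcm4 is a subunit whose tail is a target of the DDK kinase.

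Mcm7 marked the other end. It had 409, 436, 449, 257 and 283 CPM in S-G2-M, against 452, 417, 560.2, 281 and 313 CPM in G1-S, or 91.3% ± 8.67 of its G1-S level, and its log2 change of -0.14 ± 0.11 did not pass (adjusted p = 0.476). The gates overlapped and 1 preparation, WT2, was higher in S-G2-M. Orc6 had 69.3, 75.9, 78.7, 45.6 and 50.8 CPM in S-G2-M (log2 change -0.34 ± 0.13, adjusted p = 0.0762) and Mcm5 had 362, 402, 409, 219 and 239 CPM (log2 change -0.42 ± 0.16, adjusted p = 0.0836). Both were lower in S-G2-M in each of the 5 preparations, so a miss of the threshold does not show that they stayed level. Mcm6 fell by 0.76 ± 0.18, Mcm3 by 0.56 ± 0.18, Mcm10 by 0.50 ± 0.17, Mcm2 by 0.45 ± 0.10 and Orc1 by 0.35 ± 0.10 on the log2 scale, each lower in all 5 preparations. The count of 7 dropped to 3 without preparation WT3, to 4 without preparation 5 and to 4 without preparation 8, and Cdc6, Mcm2 and Mcm6 passed in each of these. Mcm10 missed the threshold whichever 1 of the 5 preparations was left out (adjusted p from 0.0567 to 0.208). Organ markers moved here too: all 6 hepatocyte, all 6 macrophage and all 6 heart markers were lower in S-G2-M. They summed to 18.2 to 33.4, 6.86 to 13.6 and 13 to 84.7 CPM there, against the G1-S sums given above. Of the other lists, 5 of 12 neuron, 5 of 9 erythroid and 1 of 5 mesenchyme markers were lower. In the other direction, 4 of 6 neural progenitor markers were higher in S-G2-M. The part of these markers in the result was not tested.

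The drop of Cdc6 was set against that of the helicase ring itself, preparation by preparation. The log2 difference between S-G2-M and G1-S for Cdc6, minus the mean of that difference over Mcm2 to Mcm7, was -1.27 ± 0.19 (SD, n = 5), between -1.53 and -1.08, and lower in 5 of 5 preparations. An exact two-sided sign-flip permutation test gave p = 0.0625, the smallest that 5 preparations allow, or 0.25 adjusted over the 4 genes compared. The same difference was -0.02 ± 0.31 for Mcm10 (p = 1.0, exact sign-flip permutation test), 0.14 ± 0.15 for Orc1 (p = 0.188, same exact test) and 0.16 ± 0.23 for Orc6 (p = 0.25, same exact test). This design cannot reach 0.05, so the values per preparation carry the comparison.

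**Figure D2:**
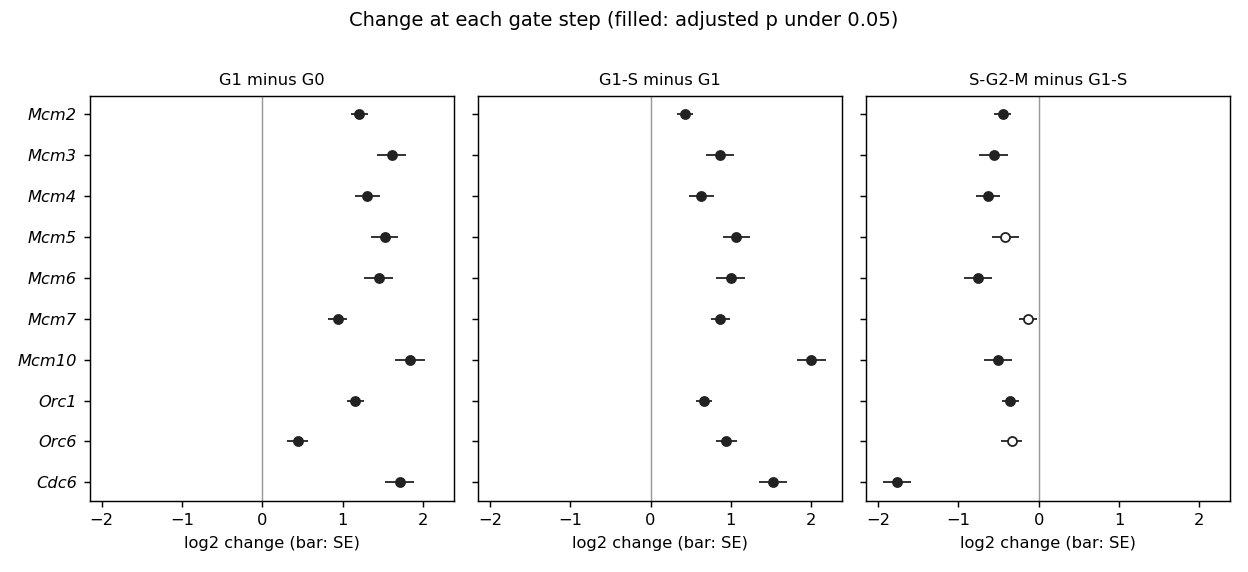
Log2 change of each of the 10 genes at the steps G1 minus G0, G1-S minus G1 and S-G2-M minus G1-S, with the standard error as a bar and filled points where the adjusted p was under 0.05. All points are filled and right of 0 in the first and second panels, and Cdc6 stands apart at -1.77 in the third.

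Measured directly against G1, the S-G2-M gate split the group. Mcm10, Mcm7, Mcm5, Orc6 and Orc1, 5 of the 10, were higher in S-G2-M, where 16.3% of tested genes were higher. Mcm10 stayed far above its G1 level, with 135, 139, 136, 112 and 114 CPM in S-G2-M and 27.4 to 69.5 CPM in G1 (log2 change 1.5 ± 0.18, adjusted p = 6.96e-07). It was the 1 member whose S-G2-M libraries all lay above the G1 libraries (7.52% of tested genes). Mcm7 was higher by 0.74 ± 0.11, Mcm5 by 0.65 ± 0.16, Orc6 by 0.61 ± 0.13 and Orc1 by 0.31 ± 0.10, and Orc1 missed the threshold without WT2 (adjusted p = 0.0773), without preparation 5 (0.0936) or without preparation 8 (0.145). Mcm2 (log2 change -0.02 ± 0.10), Mcm4 (0.00 ± 0.15), Mcm6 (0.24 ± 0.18) and Mcm3 (0.31 ± 0.18) did not pass. Cdc6 was the member with the most negative value, -0.24 ± 0.17 (adjusted p = 0.321), lower in 2 preparations and higher in 3. Cell type markers differed between these gates as well. In S-G2-M 8 of 12 neuron, 8 of 9 erythroid, all 6 macrophage, 2 of 6 heart and 1 of 5 mesenchyme markers were lower. Of the 6 neural progenitor markers 4 were higher, and of the 6 hepatocyte markers 1 was higher and 1 lower. The part of these markers in the result was not tested.

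Against G0, both later gates kept all 10 members higher. In G1-S against G0 that set stood beside 27.8% of tested genes that were higher, and in S-G2-M against G0 beside 27.5%. No library of either gate overlapped the G0 libraries for any member (12.8% and 14.9% of tested genes). The log2 changes from G0 to G1-S ran from 1.39 ± 0.13 for Orc6 to 3.84 ± 0.19 for Mcm10. In S-G2-M they ran from 1.05 ± 0.13 to 3.34 ± 0.19 for the same genes. All 12 neuron markers were lower in both later gates than in G0. Neural progenitor markers were higher, 4 of 6 in G1-S and 6 of 6 in S-G2-M. Of the 6 heart markers 2 were higher in G1-S and 5 were lower in S-G2-M. The part of these markers in the result was not tested.

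The gates were also set against unsorted cells of the same preparations. All 10 members were lower in G0 than in unsorted cells (32.6% of tested genes were lower), with log2 changes from -1.24 ± 0.13 for Orc6 to -2.99 ± 0.19 for Mcm10, and no library overlapped (16.6% of tested genes). In G1, 9 were lower (26.9% of tested genes), all but Mcm4, whose log2 change was -0.32 ± 0.15 (adjusted p = 0.0926, and 0.0122 without WT1). In G1-S only Mcm10 (0.85 ± 0.17) and Cdc6 (0.89 ± 0.17) passed as higher (13.1% of tested genes). Unsorted cells had 69.9, 86.4, 115, 69.9 and 72.4 CPM of Cdc6 and 108, 127, 149, 67.0 and 72.4 CPM of Mcm10. In each preparation the G1-S value of these genes was above the unsorted one, and across preparations the ranges overlapped. In S-G2-M, Cdc6 (-0.87 ± 0.17) and Mcm2 (-0.44 ± 0.10) were lower (18.2% of tested genes). For so few genes, the counts in G1-S and in S-G2-M are not far from the shares of all tested genes. The S-G2-M count of 2 was 5 without WT1 and 1 without WT3 or without preparation 8. Cdc6, Mcm2, Mcm3 and Orc1 were each lower in S-G2-M in all 5 preparations. Unsorted cells differed from every gate in red cell RNA: 9 erythroid markers summed to 80.9 to 3031 CPM over all sorted libraries and to 16150 to 34620 CPM in unsorted cells. Hba-a2, which shares reads with a near-identical copy, was at 0 in 8 libraries, and the part of these markers in the result was not tested.

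E13.5 was set against E10.5 within each fraction, with 2 libraries on each side, to ask whether the level of these genes in a gate depended on the day. The G1 gate showed the broadest difference. There 9 of 10 members were lower at E13.5, where 28.5% of tested genes were lower, with a median log2 difference of -0.84 against -0.11 over all tested genes. Cdc6 had 32.8 and 30.8 CPM at E13.5, against 48.6 and 78.9 CPM at E10.5, a log2 difference of -1.0 ± 0.19 (adjusted p = 0.000504). Mcm10 had 27.9 and 27.4 CPM at E13.5, against 45.1 and 69.5 CPM at E10.5 (-1.05 ± 0.19, adjusted p = 0.000334). Mcm7 had 137 and 149.9 CPM at E13.5, against 254 and 299.5 CPM at E10.5 (-0.95 ± 0.12, adjusted p = 6.46e-06). For each of these genes both E13.5 libraries lay below both E10.5 libraries. Mcm5 differed by -0.97 ± 0.18, Mcm3 by -0.85 ± 0.23, Mcm2 by -0.82 ± 0.12, Mcm6 by -0.77 ± 0.25, Orc6 by -0.77 ± 0.17 and Orc1 by -0.40 ± 0.15. Mcm4, with 155 and 175 CPM at E13.5 and 190.3 and 264 CPM at E10.5, did not pass (-0.46 ± 0.19, adjusted p = 0.0606, and 2.25e-05 without WT1). The single E11.5 preparation, which had no replicate, had 89.3 CPM of Cdc6, 69.0 CPM of Mcm10 and 282 CPM of Mcm7 in G1, within or above the E10.5 values.

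Cell cycle and tissue markers of the G1 gate differed between these days as well. The 8 mitosis genes summed to 96.0 to 104 CPM at E13.5 and 179 to 214 CPM at E10.5, and the 4 S phase genes to 109 to 112 CPM at E13.5 and 218 to 336 CPM at E10.5. The 5 mesenchyme markers summed to 4937 to 5151 CPM at E13.5 and 1255 to 1782 CPM at E10.5, with 4 of the 5 higher at E13.5, and the 12 neuron markers to 841 to 858 CPM at E13.5 and 1629 to 2188 CPM at E10.5. Their part in the result was not tested. Without preparation 5 the count of members lower in G1 was 5, and without preparation 8 it was also 5. In these fits the lone E13.5 library is assumed to vary like the other groups, and Mcm2, Mcm5, Mcm7 and Mcm10 passed in both.

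In G1-S, 8 members were lower at E13.5 (19.8% of tested genes), all but Mcm4 and Orc1. Orc6 had 52.9 and 52.1 CPM at E13.5, against 104 and 85.3 CPM at E10.5, the largest log2 difference in that gate (-0.85 ± 0.16, adjusted p = 0.000614). In S-G2-M, 7 were lower (24.1% of tested genes), all but Mcm4, Mcm10 and Orc1. Mcm6 had 177 and 193 CPM at E13.5, against 312 and 345 CPM at E10.5 (-0.83 ± 0.25, adjusted p = 0.0138). Mcm10, by contrast, had 112 and 114 CPM at E13.5 and 135 and 139 CPM at E10.5 in S-G2-M, a log2 difference of -0.28 ± 0.19 (adjusted p = 0.251), and it passed without WT1 (0.00751) or without WT2 (0.0263). In unsorted cells, 4 members, Mcm5, Mcm7, Mcm10 and Orc6, were lower (28.7% of tested genes). For so few genes that count is not far from the share of all tested genes. Without preparation 5 the counts were 1 in G1-S, 0 in S-G2-M (3 at an unadjusted p under 0.05) and 1 in unsorted cells. Without preparation 8 they were 2, 1 and 2, and in unsorted cells the count was 8 without WT1. Cell cycle markers did not all follow the members here. In G1-S, 6 of 8 mitosis genes were higher at E13.5 (sums of 2031 to 2217 CPM, against 1442 to 1444 at E10.5). Of the 4 S phase genes there, 2 were higher and 2 lower. In S-G2-M, 2 of 8 mitosis genes were higher, and the S phase genes were again split 2 and 2. In unsorted cells 1 mitosis gene was higher and 2 were lower. Tissue markers differed between the days in these fractions too. In G1-S all 6 hepatocyte markers were higher at E13.5, with sums of 1514 to 2033 CPM at E13.5 and 18.7 to 25.4 CPM at E10.5, as were all 6 macrophage markers (258 to 311 CPM at E13.5 and 80.8 to 92.9 CPM at E10.5), 5 of 12 neuron markers and 3 of 5 mesenchyme markers. In S-G2-M, 8 of 12 neuron markers were higher at E13.5 and 1 was lower, with sums of 484 to 588 CPM at E13.5 and 240.4 to 281 CPM at E10.5, and 4 of 6 hepatocyte markers were higher. In unsorted cells all 6 hepatocyte and all 6 macrophage markers were higher at E13.5. Of the 9 erythroid markers there, 5 were higher and 1 was lower. The part of these markers in the results was not tested.

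In G0, 1 member, Mcm2, was lower at E13.5 (22.5% of tested genes), with 82.3 and 79.6 CPM at E13.5, against 102 and 116 CPM at E10.5 (-0.42 ± 0.12, adjusted p = 0.0073). The median log2 difference of the 10 was 0.17, against -0.04 over all tested genes, and the E10.5 preparations themselves disagreed in G0. Mcm3, for example, had 63.9 and 61.2 CPM at E13.5, and 33.9 and 66.1 CPM at E10.5. Without WT1, 4 members were lower at E13.5 in G0 (Mcm2, Mcm6, Mcm7 and Orc6). Without WT2, 1 was lower (Mcm2) and 6 were higher (Mcm3, Mcm4, Mcm5, Mcm6, Mcm10 and Cdc6). Without preparation 5, or without preparation 8, the count of members lower was 0 (1 and 0 at an unadjusted p under 0.05). All 5 mesenchyme markers were higher at E13.5 in G0, with sums of 3409 to 3744 CPM at E13.5 and 278 to 694 CPM at E10.5. Of the 12 neuron markers 6 were lower and 1 was higher, and 4 of 6 heart markers were lower. Of the 6 neural progenitor markers 5 were higher and 1 was lower. The part of these markers in the result was not tested.

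Whether a gate step itself differed between days was tested as an interaction. The G1 minus G0 step was smaller at E13.5 for 4 members, where 2.47% of tested genes had a smaller step. The step at E13.5 minus that at E10.5 was -1.21 ± 0.28 on the log2 scale for Cdc6 (adjusted p = 0.0224), -1.21 ± 0.28 for Mcm10 (adjusted p = 0.0235), -1.21 ± 0.25 for Mcm5 (adjusted p = 0.0121) and -0.74 ± 0.16 for Mcm7 (adjusted p = 0.016). The other members were also negative, from -1.18 ± 0.33 for Mcm3 to -0.40 ± 0.16 for Mcm2, without passing. For Cdc6 the step was 1.05 in preparation 5 and 1.07 in preparation 8, against 2.24 in WT1, 2.29 in WT2 and 1.84 in the E11.5 preparation WT3. With the replicate block, which takes the preparation as a term, the count was 7, with Mcm3, Mcm4 and Mcm6 added. Without WT1 it was 9 and without WT2 it was 7, and it was 0 without preparation 5 (5 at an unadjusted p under 0.05) and 0 without preparation 8 (6 at an unadjusted p under 0.05). The G1-S minus G1 step passed for 0 members in edgeR (2 at an unadjusted p under 0.05, Mcm2 and Mcm7) and for 0 in DESeq2, where 5.31% of tested genes differed in edgeR, and for 7 members without WT1. The S-G2-M minus G1-S step passed for 0 members in both tools (0 at an unadjusted p under 0.05), where 1.02% of tested genes differed, and for 1 member, Mcm10, without WT2.

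**Figure D3:**
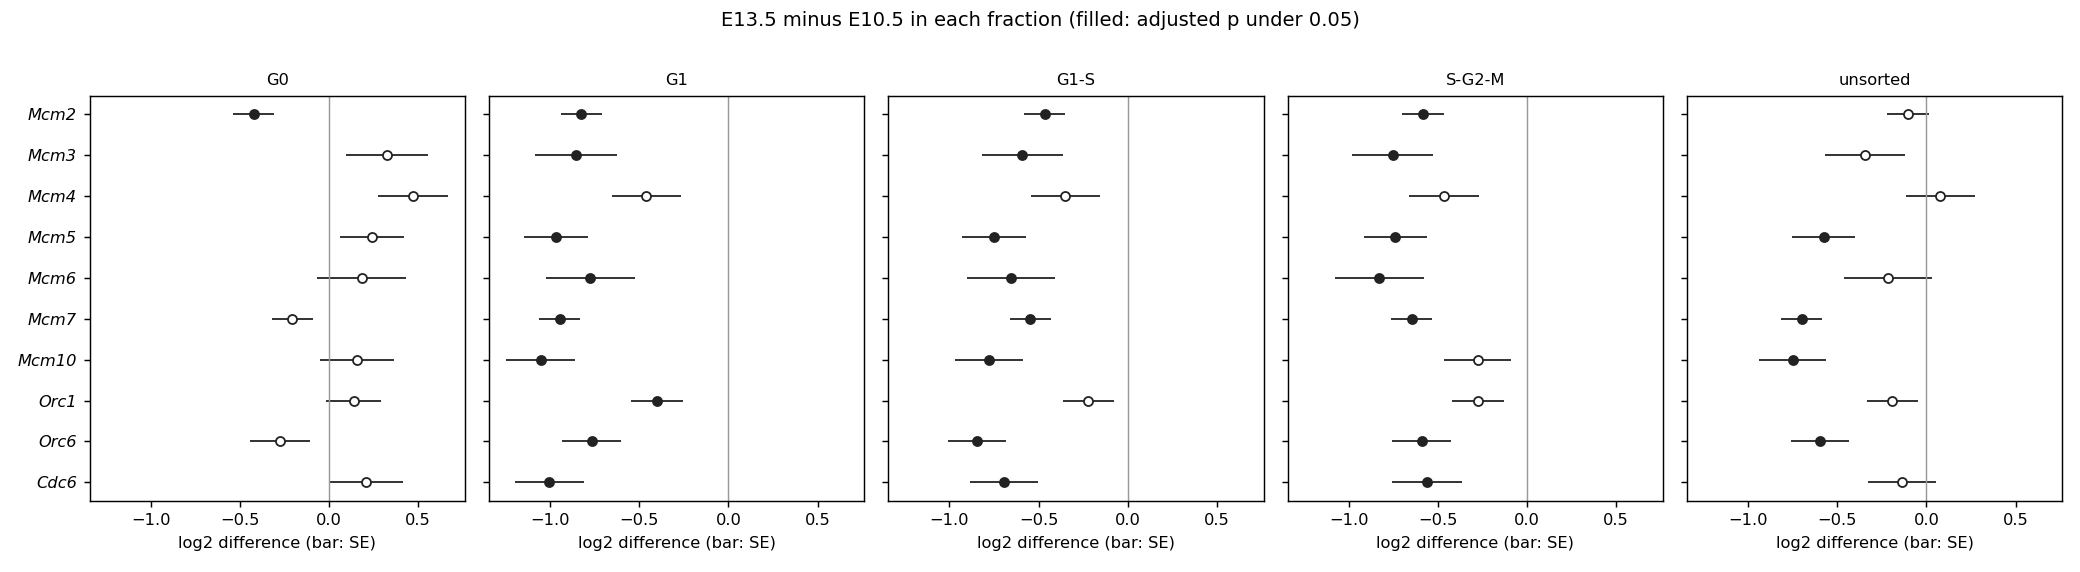
Log2 difference between E13.5 and E10.5 for each of the 10 genes in each fraction, with the standard error as a bar and filled points where the adjusted p was under 0.05. In G1, G1-S and S-G2-M all points lie left of 0, while in G0 they fall on both sides and only Mcm2 is filled.

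The ring takes 1 copy of each of Mcm2 to Mcm7, so their levels were set beside each other per kilobase of annotated exon. Within a gate these 6 genes were not at 1 level. The mean ratio of highest to lowest was smallest in G1, although the smallest ratio of any library, 1.32, was in G0. The smallest ratio in G1 was 1.49, and the order of the gates was not tested. The highest exceeded the lowest within a library by 2.02 ± 0.57 times in G0, 1.70 ± 0.19 in G1, 2.28 ± 0.36 in G1-S and 2.36 ± 0.10 in S-G2-M (mean ± SD, n = 5 each). In G1 the means ran from 36.2 CPM per kb for Mcm2 to 57.2 for Mcm4, and the 5 genes other than Mcm2 lay between 50.7 and 57.2, closer than the spread between preparations. In G1-S they ran from 47.9 ± 9.67 CPM per kb for Mcm2 to 111 ± 39.7 for Mcm5, and in S-G2-M from 35.2 ± 8.06 for Mcm2 to 82.8 ± 20.4 for Mcm7, with Mcm5 at 81.7 ± 22.8 beside it. The low place of Mcm2 rests on its length: its exons cover 6956 bases in all annotated forms together, but 3494 in the longest single transcript. Per kilobase of the longest transcript Mcm2 was lowest in no fraction, Mcm7 was highest in all 5, and the ratio of highest to lowest was 2.30 in G0, 1.43 in G1, 1.55 in G1-S and 2.21 in S-G2-M. Outside the ring, Orc1 was the scarcest member in G1-S at 7.65 ± 0.95 CPM per kb, followed by Mcm10 at 24.3 ± 6.92, Cdc6 at 30.3 ± 10.5 and Orc6 at 33.9 ± 12.8. The ranges of Mcm10, Cdc6 and Orc6 overlapped across preparations, while each of the 5 preparations kept Mcm10 below Cdc6 and Cdc6 below Orc6. The order of Mcm10 and Cdc6 rests on the length used. Per kilobase of the longest transcript the G1-S mean was 38.45 for Mcm10, above the 33.02 of Cdc6, with Orc6 at 57.06.

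**Figure D4:**
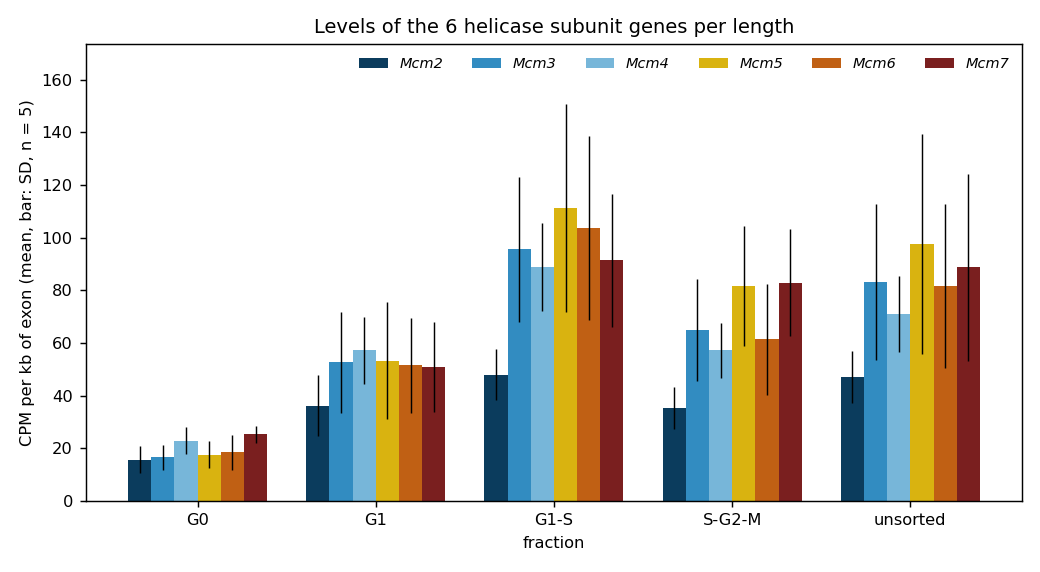
Level of the 6 helicase ring genes in each fraction as CPM per kilobase of annotated exon (linear axis, from 0), drawn as the mean of 5 libraries with the SD as a bar. All 6 genes rise to G1-S, where the means span 47.9 to 111, and Mcm7 and Mcm5 stay highest in S-G2-M.

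Other genes of origin licensing and firing, from lists chosen by role, were set beside the members at the same steps. Over all tested genes, 18.2% were higher in G1 than in G0 and 11.7% in G1-S than in G1. Of 5 further origin recognition genes (Orc2 to Orc5 and Lrwd1), 3 were higher in G1 than in G0 and 2, Orc2 (0.59 ± 0.12) and Lrwd1 (0.42 ± 0.11), in G1-S than in G1, with medians of 0.33 and 0.24. None of the 5 passed between S-G2-M and G1-S (edgeR, with 1 at an unadjusted p under 0.05). Orc4, a core subunit, had log2 changes of -0.07 ± 0.10 and -0.05 ± 0.10 at the first and second steps, without passing. Of the 3 loading control genes, all rose at both steps: Cdt1, which delivers the ring, by 1.29 ± 0.12 and 0.88 ± 0.12, its inhibitor Gmnn by 1.29 ± 0.20 and 1.76 ± 0.19, and Mcmbp, which binds MCM proteins, by 0.34 ± 0.08 and 0.30 ± 0.08. After G1-S only Cdt1 fell, by 0.85 ± 0.12, while Gmnn had -0.14 ± 0.19 without passing.

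Of 13 genes of helicase activation, 10 were higher in G1 than in G0 (median 0.84) and 13 in G1-S than in G1 (median 1.14). The shares of all tested genes were 18.2% and 11.7%. Cdc45, which rides with the ring, led the second step at 2.06 ± 0.18, and Gins4, a GINS subunit, had the smallest change at 0.79 ± 0.15. Between S-G2-M and G1-S, where 10.1% of tested genes were lower, 4 fell (Cdc45, Donson, Gins2 and Wdhd1, median of the list -0.11). Dbf4, the activating subunit of the DDK kinase, rose by 0.72 ± 0.13. Of 3 MCM paralogs, Mcm8 and Mcm9 rose at the first step, by 0.75 ± 0.13 and 0.62 ± 0.10, and at the second, by 1.32 ± 0.13 and 0.41 ± 0.10. Mcmdc2, known for a role in meiosis, did not pass at either (0.82 ± 0.36 at the second) and was at 0 in 1 library. At E13.5 against E10.5 in G1, 28.5% of all tested genes were lower. Of the lists, 10 of the 13 activation genes, 2 of the 3 loading control genes, 2 of the 5 origin recognition genes and 2 of the 3 paralogs were lower, and none was higher. For so few genes the origin recognition count is not far from the share of all tested genes.

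Over the 25 libraries, after the mean of each preparation was taken from each gene's log2 CPM, each member was set against the mean of the other 9, and Pearson's r ran from 0.930 (Cdc6) to 0.992 (Mcm5). Among the genes outside the group most like the mean of all 10 were Ccne1, a G1-S cyclin (r = 0.990), Uhrf1, which maintains DNA methylation (0.988), Msh6, a mismatch repair gene (0.988), and Chaf1b, a subunit of a histone chaperone (0.985). Mcm10 was most like Chaf1a (0.997), Atad2 and Clspn. Orc1 was most like Samhd1 (0.979), and Orc6 was most like Rfc3 (0.983), a clamp loader subunit. Cdc6 was most like Cdt1 (0.974), the gene for its partner in loading. These coefficients describe libraries that share gates, preparations and the same scaling, and many cell cycle genes reach similar values.

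Locations bear on what was counted. On GRCm38 (GENCODE M21), Mcm7 (chromosome 5 from 138164583 to 138172422, minus strand, 15 exon blocks) shares 12.6% of its exon length with Cops6 and Ap4m1 on the other strand and with the microRNA genes Mir25 and Mir93 inside it. Orc1 (chromosome 4 from 108579423 to 108614833, plus strand) shares 10.8% with Gm12743, and Orc6 (chromosome 8 from 85299632 to 85308278, plus strand) shares 6.93% with Vps35, both on the other strand. Whether counting used strand is not given in the sources used here, so reads of these stretches cannot be assigned with certainty. The other 7 members share no exon base with another gene. Ap4m1, next to Mcm7, had a log2 change of 0.09 ± 0.13 between G1-S and G1, where Mcm7 rose by 0.87 ± 0.12, but it was higher by 0.33 ± 0.13 in G1 than in G0 (adjusted p = 0.0443). Prkdc, next to Mcm4, had -0.02 ± 0.09 between G1-S and G1, where Mcm4 rose by 0.63 ± 0.15. It moved the same way as Mcm4 at the other steps, higher by 0.32 ± 0.09 in G1 than in G0 (adjusted p = 0.00695) and with -0.38 ± 0.09 between S-G2-M and G1-S (adjusted p = 0.00576). Cdc6 (chromosome 11 from 98907801 to 98923940, plus strand) and Mcm10 (chromosome 2 from 4989714 to 5012791, minus strand), the members with the largest changes, are free of such sharing.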

How the data were processed

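The authors deposited whole-number counts of reads per gene without normalization, 130 columns for 52550 genes. STAR 2.5.3, HTSeq 0.8.0 and build mm10 are named in the submitters' processing notes. The labels' protocols give column purification of total RNA, rRNA depletion and Illumina libraries. Strandedness and the counting annotation are items not given in the sources used here, so antisense neighbours could share reads.

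Columns that share a preparation and a fraction differed little more than by sampling (dispersion index 1.09 to 1.23 where at least 5 counts were expected, against 5.88 to 118 between preparations) and were summed, which gave 25 libraries. The filterByExpr function (by fraction, with a count of 10 and a total of 15 as minima) chose the genes, which were scaled by TMM and tested with edgeR 4.0.16 (limma 3.58.1, R 4.3.3) by the robust quasi-likelihood F test, adjusted by Benjamini-Hochberg over 23506 genes with a threshold of 0.05. Gate comparisons used fraction and day as terms, and day comparisons a mean for each fraction and day. A standard error is the log2 change over the root of its F value. CPM are per TMM-adjusted total, and log2 CPM had 0.5 added to each count.

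Between fractions, deviations of the preparations of a day correlated at 0.119 to 0.743 (E10.5) and 0.316 to 0.663 (E13.5) over 11142 genes in all 10 pairs each. Without Xist, Tsix and Y-linked genes these ranges were 0.119 to 0.743 and -0.143 to 0.503, so at E13.5 the agreement rests largely on sex-linked genes. The title prefix, which all 5 fractions of a preparation share, was taken to pair the libraries. The reported fit has no term for it and takes the libraries of a preparation as independent. Alternatives were RLE factors, DESeq2 1.42.0, no filter, a 1.5-fold minimum, a replicate block, subsets of preparations and leaving out each preparation. The fit was tested on simulated counts. The limit of 3 counts covers counting error only, while standard errors and SDs hold the spread between libraries. The members, gene lists and tests were chosen with earlier results of these data known. The text names all 10 members, other licensing and firing genes by their extreme or contrary values, the 5 genes most like the members' mean (1 of them is not reported here) and the 3 most like Mcm10, Orc1, Orc6 and Cdc6 among genes whose log2 CPM averaged 3 or more.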

Additional observations from a re-analysis of the deposited data

Results flagged for a closer look

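The G1 minus G0 step differed between days for 4 members in the interaction test of edgeR with Benjamini-Hochberg adjustment. The step at E13.5 minus the step at E10.5 was -1.21 on the log2 scale for Mcm5, -0.74 for Mcm7, -1.21 for Mcm10 and -1.21 for Cdc6. For each of these genes the step was positive in all 5 preparations and smaller in both E13.5 preparations than in both E10.5 preparations. The median difference over all tested genes was -0.10. The number of calls rests on having both preparations 5 and 8, since without either of them a lone E13.5 library per fraction is left. The log2 values without preparation 5 were -1.06 for Mcm5, -0.68 for Mcm7, -1.225 for Mcm10 and -1.19 for Cdc6. Without preparation 8 they were -1.32, -0.77, -1.15 and -1.20. In DESeq2 with all libraries the number was 6. Day, preparation set and mitochondrial share change together here and cannot be told apart. Among the 50 combinations of gene and fraction, 0 had a library that stood apart from the other 4 by Dixon's test.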

How the results depend on the processing

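Under RLE factors and DESeq2 each count of members stayed within 1.5 times its value. With a 1.5-fold minimum, 4 members rose between G1-S and G1, 1 fell between S-G2-M and G1-S, 1 was higher in S-G2-M than in G1, 1 was lower in G1 than in unsorted cells, and 0 passed for G1-S or S-G2-M against unsorted cells (3 and 5 at an unadjusted p under 0.05 with no minimum in edgeR, 2 and 3 in DESeq2). With the WT-titled preparations only, the counts were 2 for S-G2-M against G1-S, 3 for S-G2-M against G1, 5 for G1 against unsorted and 1 for S-G2-M against unsorted. With preparations 5 and 8 only, 6 were higher in G1-S and 5 lower in S-G2-M than in unsorted cells. With no filter, these were 4 and 5, and the smaller G1 minus G0 step at E13.5 was called for 7. The replicate block gave 7 for that step and changed no other call. It cannot be fitted within a gate between days, because no preparation spans days. Causes were not tested.

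Leaving out each preparation in turn gave 9 to 10 members higher for G1 against G0, 9 to 10 for G1-S against G1, 3 to 6 lower for S-G2-M against G1-S, 4 to 5 higher for S-G2-M against G1, 10 to 10 for G1-S and for S-G2-M against G0, 10 to 10 lower for G0 against unsorted, 7 to 10 for G1, 2 to 2 higher for G1-S and 1 to 5 lower for S-G2-M. For E13.5 against E10.5 it gave 0 to 4 lower in G0, 5 to 10 in G1, 1 to 9 in G1-S, 0 to 9 in S-G2-M and 1 to 8 in unsorted cells. For the step differences between days it gave 0 to 9 for G1 minus G0, 0 to 7 for G1-S minus G1 and 0 to 1 for S-G2-M minus G1-S. In G0 the log2 difference of Mcm6 between days was 0.18, with -0.24 (adjusted p = 0.0474) without WT1 and 0.73 without WT2. Of the 5 genes most like the members' mean, 3 stayed when the 20 sorted libraries alone were used. With 2 preparations on a day, 1 preparation can decide a call between days, and depth does not limit these genes.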
